A study of Mus musculus with 18 samples.

Results

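A set of 10 cytotoxic lymphocyte genes was followed in bone marrow preparations of tumour-bearing and control mice: Gzma, Gzmb, Prf1, Nkg7, Klrd1, Ncr1, Eomes, Tbx21, Ccl5 and Klrk1. They were taken by name, with earlier results of these data known. All 10 were found among the 19505 genes with a symbol, each with 1 probe set. The samples were 18 mice, 1 array each: at 12 weeks of age 5 BALB/c and 5 NeuT, and at 24 weeks 4 of either kind. NeuT mice, a model known for an activated rat Erbb2 (HER2/neu) transgene under the mouse mammary tumour virus promoter on the BALB/c background, develop mammary carcinomas. The labels call the 12-week NeuT mice early and the 24-week ones late in tumorigenesis, and transgene and tumour cannot be told apart. The BALB/c mice of each age were the controls and carry no treatment in the labels. The cells are labelled as mesenchymal stromal cells and were taken from femur and tibia marrow by removing cells that bind antibodies to CD45, Ter119, CD11b, CD11c, CD3, Gr1 and B220; flow cytometry then checked for CD29 and CD44 without CD45. The comparison asks whether transcripts of cytotoxic lymphocytes in this preparation differ between the mouse models at each age.

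Cytotoxic T cells and natural killer (NK) cells kill infected and transformed cells by releasing granules. The pore-forming protein perforin lets granule proteases, the granzymes, into the target cell, and receptors such as NKG2D on the killer cell decide which cells are attacked. The T-box transcription factors T-bet and Eomes switch this programme on. All these cells carry CD45, and T cells also CD3, which the beads were meant to remove.

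Most of the 10 genes gave dim signals. Values are log2 signals normalised by RMA (robust multi-array average), and 1 unit is a doubling. The 5222 negative control probe sets had a median of 7.35 and a 95th percentile of 10.46 over all arrays. Nkg7 lay above that percentile in 18 of 18 arrays and the other 9 genes in 0. Gzma, Gzmb, Prf1, Eomes and Tbx21 were above the control median in all 18 arrays and Klrd1 and Ccl5 in 17. Ncr1 and Klrk1 were above it in none, with signals of 6.42 to 7.25 and 5.23 to 6.44, so for these genes only signals are compared. There are no detection calls, so no gene is called absent. Of 15 further NK receptor and adaptor genes 5 had every group mean under the control median (Klrb1a, Klrb1c, Klrc1, Klrc2 and Klrg1) and 10 had every group mean above it. Among these 10, which other blood cells also express in part, were Il2rb (10.12 to 10.78), Slamf7 (9.66 to 10.56), Cd244a (9.56 to 9.83) and Cd160 (8.67 to 8.71). None of 11 T-cell markers exceeded the 95th percentile of the controls in any array, and their mean log2 signal ran from 8.29 to 8.93. Mpo and Elane, granule genes of neutrophil precursors, had group means of 13.78 to 13.97 and 13.90 to 14.13, above that percentile in every group. The stromal marker list had a mean log2 signal of 8.97 to 9.24, but its 8 genes were uneven. In each array 2 of them exceeded that percentile, Itgb1 (group means of 11.37 to 11.47) and Cd44 (11.80 to 11.92). Which cells gave the Itgb1 and Cd44 signals was not tested. The other stromal genes were dimmer, such as Cxcl12 (9.18 to 9.36) and Pdgfrb (8.37 to 8.80). Lepr (5.36 to 5.70) lay under the control median in every group. Of 9 B-cell markers 2 to 7 exceeded the 95th percentile of the controls in each array, and of 3 erythroid markers 2 to 3. The arrays were alike in scale (medians of 8.43 to 8.56). The arrays of replicate 4 of the 12-week NeuT mice, replicate 3 of the 24-week controls and replicate 1 of the 24-week NeuT mice correlated least with the rest (median correlations of 0.987, 0.988 and 0.991; highest 0.995). Such bulk signals cannot tell apart fewer cells of a type from less RNA per cell.

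**Figure D1:**
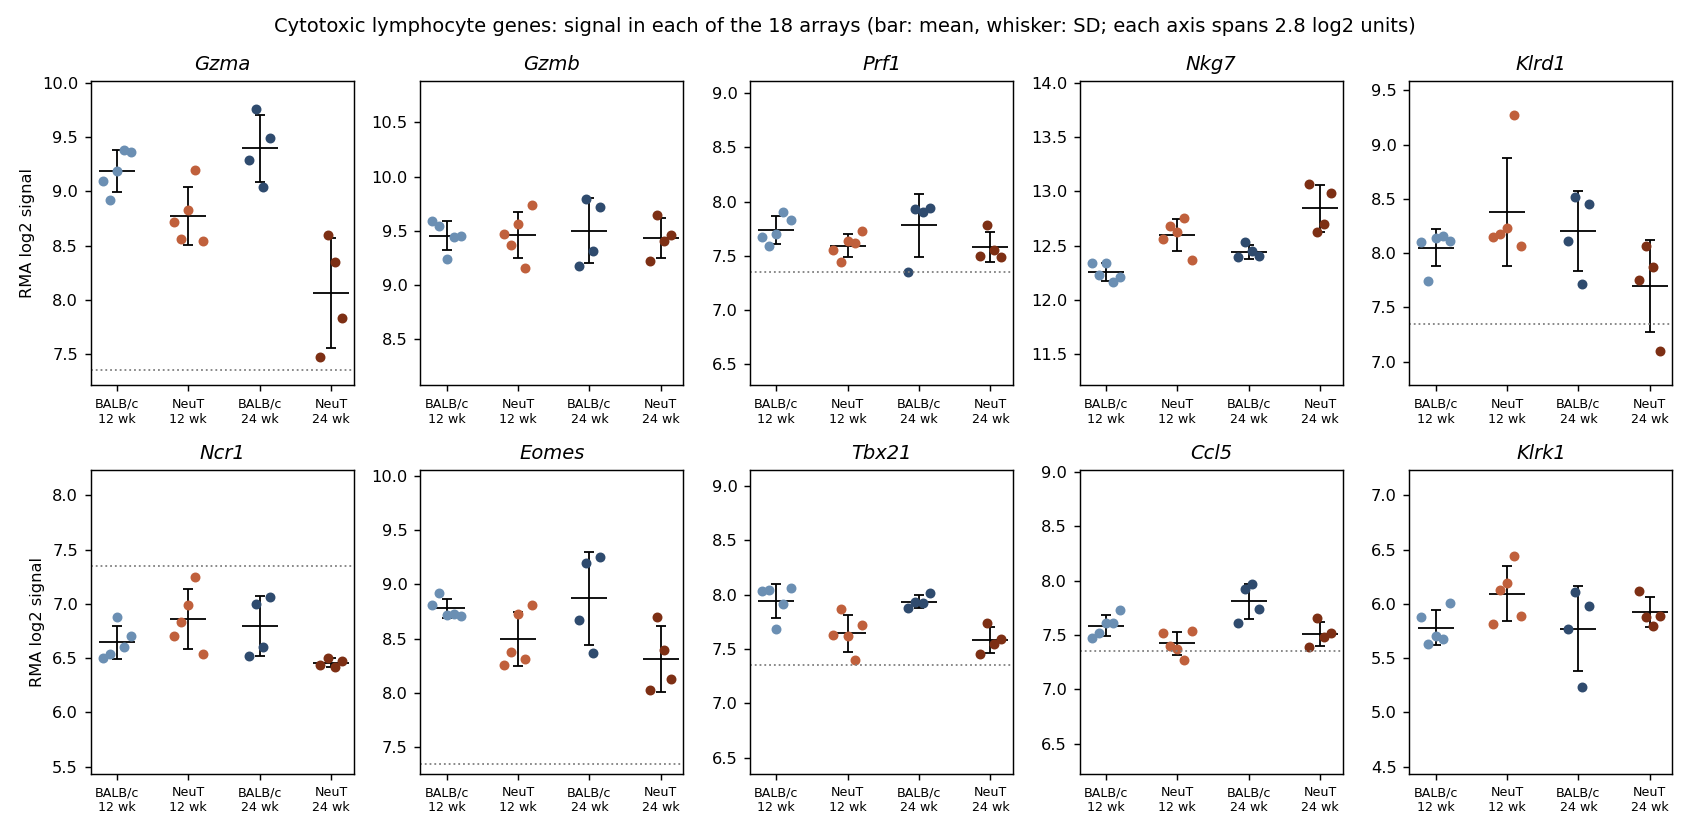
RMA log2 signal of each of the 10 genes (vertical axes, 2.8 log2 units each) in the 18 arrays, by mouse model and age; points are mice, the black bar and whisker the mean and SD, and the dotted line the median of the negative controls (7.35) where it falls in the panel. Gzma in NeuT mice of 24 weeks (7.47 to 8.60) and Nkg7 in NeuT mice of both ages lie apart from their controls.

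At 24 weeks Gzma was lower and Nkg7 higher in NeuT than in BALB/c mice, and the other 8 genes did not pass the test. At 12 weeks Nkg7 alone passed, higher in NeuT mice. Of 10 genes this is 1 lower and 1 higher at 24 weeks, where 1.4% of all genes passed, 1.18% higher and 0.22% lower, and 1 higher at 12 weeks, where 3.84% passed, 3.15% higher and 0.687% lower. The threshold was a limma p-value adjusted over all genes under 0.05. At an unadjusted limma p under 0.05 there were 7 of the 10 at 24 weeks, 1 higher and 6 lower, where 13.2% of all genes were, 9.2% higher and 4.02% lower. At 12 weeks there were 4, 2 in each direction, where 21% of all genes were, 11.6% higher and 9.41% lower. At 24 weeks 8 of the 10 log2 differences lay below 0, with a median of -0.32 against 0 over all genes. At 12 weeks 5 lay below 0 and 5 above, with a median of -0.07 against -0.03 over all genes. Because the genes were chosen with earlier results of these data known, these counts describe them and are no independent support.

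Gzma (Entrez gene 14938) encodes granzyme A, a trypsin-like protease of the granules of cytotoxic T and NK cells. Its promoter window and that of Nkg7, the other gene that passed, are shown for reading beside the values. The windows run from 250 bases before to 50 bases after the RefSeq start site (build GRCm38.p6), 5′ to 3′ on the gene's strand. Gzma lies on chr13:113100932-113101231, minus strand, and Nkg7 on chr7:43436888-43437187, plus strand. Capitals mark matches, on either strand, to the T-box core AGGTGT, which reads ACACCT on the other strand, its longer form AGGTGTGA, which reads TCACACCT, and the RUNX core TGTGGT, which reads ACCACA.
Gzma: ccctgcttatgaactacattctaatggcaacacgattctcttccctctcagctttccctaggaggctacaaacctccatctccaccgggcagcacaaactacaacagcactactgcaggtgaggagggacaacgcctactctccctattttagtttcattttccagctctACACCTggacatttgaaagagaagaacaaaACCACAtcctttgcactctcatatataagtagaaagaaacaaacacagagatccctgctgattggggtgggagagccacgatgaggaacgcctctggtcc
Nkg7: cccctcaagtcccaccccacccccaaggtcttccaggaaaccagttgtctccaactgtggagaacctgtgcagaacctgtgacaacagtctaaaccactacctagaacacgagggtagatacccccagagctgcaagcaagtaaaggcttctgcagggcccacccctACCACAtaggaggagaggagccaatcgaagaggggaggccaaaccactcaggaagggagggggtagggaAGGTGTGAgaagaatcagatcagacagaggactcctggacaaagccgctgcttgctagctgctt
In Gzma the T-box core began 80 bases and the RUNX core 50 bases before the start site, both on the other strand. In Nkg7 the T-box core lay 14 bases before it, within the longer form, and the RUNX core 83 bases before it. Of 32851 windows of this length 13.7% held the T-box core, 1.28% the longer form (which contains the core) and 16.8% the RUNX core. Among the 8 member genes with a window, 3 held the T-box core (Gzma, Prf1 and Nkg7), 1 the longer form (Nkg7) and 6 the RUNX core (Gzma, Gzmb, Prf1, Nkg7, Ncr1 and Klrk1). These motifs were chosen after the sequences were seen, and a match is a string of letters, not a measured binding site.

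Gzma gave log2 signals of 9.29, 9.76, 9.04 and 9.49 in the BALB/c mice of 24 weeks and of 7.47, 8.60, 8.35 and 7.83 in the NeuT mice. Every NeuT mouse was below every control, and replicates 1 and 4 were the lowest of all 18 mice. The group means were 9.39 ± 0.31 (SD, n = 4) and 8.06 ± 0.51 (n = 4). The log2 difference was -1.33 ± 0.19 (SE; 95% confidence interval -1.72 to -0.94; limma adjusted p = 0.00264), 2.51-fold lower. Both group means lie between the median and the 95th percentile of the negative controls. At 12 weeks the BALB/c mice read 9.09, 8.92, 9.19, 9.38 and 9.36 and the NeuT mice 8.72, 8.56, 8.83, 9.20 and 8.54. There the groups overlapped through NeuT replicate 4, the highest NeuT value. The log2 difference at 12 weeks was -0.41 ± 0.17 (adjusted p = 0.165), which did not pass. It passed at -0.52 without the 3 least correlated arrays (adjusted p = 0.0299) and with array weights (adjusted p = 0.0314). Of all genes 4.48% passed in the former fit, 1% lower, and 10.7% in the latter, 3.86% lower. The effects at both ages differed by -0.92 ± 0.26 (adjusted p = 0.557), so a change of the effect with age was not shown. The 24-week call held in 8 of 8 fits without 1 array, with log2 differences from -1.51 to -1.13, and ended in the fit on only the 24-week groups (adjusted p = 0.0827), where 1 gene of all passed.

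Gzmb, the gene of granzyme B, which cleaves caspases, differed by 0.01 ± 0.12 at 12 weeks (95% confidence interval -0.24 to 0.25, adjusted p = 0.983) and by -0.07 ± 0.13 at 24 weeks (-0.34 to 0.21, adjusted p = 0.872). All its 18 signals lay between 9.16 and 9.79, and the groups overlapped at both ages. At 24 weeks the Gzmb interval does not reach the value measured for Gzma. Prf1, the perforin gene, had values of -0.14 (adjusted p = 0.439) and -0.20 (adjusted p = 0.462), with signals of 7.35 to 7.94 near the control median. In the BALB/c mice of 24 weeks Prf1 read 7.35, 7.93, 7.90 and 7.94, and replicate 1 stands far below the others.

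Nkg7 (Entrez gene 72310) encodes a membrane protein of cytotoxic granules that takes part in their release, and its transcript is also known from precursors of granulocytes. In BALB/c mice of 12 weeks it read 12.34, 12.23, 12.34, 12.16 and 12.21, and in NeuT mice 12.56, 12.68, 12.62, 12.75 and 12.37. Every NeuT mouse was above every control, by a narrow gap at NeuT replicate 5. The means were 12.26 ± 0.08 (SD, n = 5) and 12.60 ± 0.14 (n = 5), a log2 difference of 0.34 ± 0.09 (SE; adjusted p = 0.0282) or 1.27-fold. At 24 weeks BALB/c mice read 12.39, 12.53, 12.45 and 12.40 and NeuT mice 13.07, 12.62, 12.70 and 12.98. The groups again did not overlap, and NeuT replicates 1 and 4, the lowest for Gzma, were the highest for Nkg7. The log2 difference was 0.40 ± 0.10 (adjusted p = 0.0398), 1.32-fold, and the effects at both ages differed by 0.06 (95% confidence interval -0.20 to 0.33, adjusted p = 0.965). These calls were close to the threshold. Without 1 array the 12-week call ended in 6 of 10 fits (BALB/c replicates 2, 4 and 5, NeuT replicates 2, 3 and 4; adjusted p up to 0.0831) and the 24-week call in 6 of 8 (each BALB/c replicate, NeuT replicates 1 and 4; adjusted p up to 0.228). It also ended after cyclic loess at 12 weeks (adjusted p = 0.0523) and 24 weeks (adjusted p = 0.129), and at 24 weeks after a further quantile normalisation (adjusted p = 0.102), in the fit on only the 24-week groups (adjusted p = 0.145) and without the 3 least correlated arrays (adjusted p = 0.245). Over the fits without 1 array the log2 difference ran from 0.30 to 0.40 at 12 weeks and from 0.33 to 0.48 at 24 weeks. In the 6 fits that ended the 24-week call, 0.041% to 1.05% of all genes passed, against 1.4% with all arrays. In those that ended the 12-week call 1.18% to 2.48% passed, against 3.84%, with the fit without NeuT replicate 2 not counted.

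**Figure D2:**
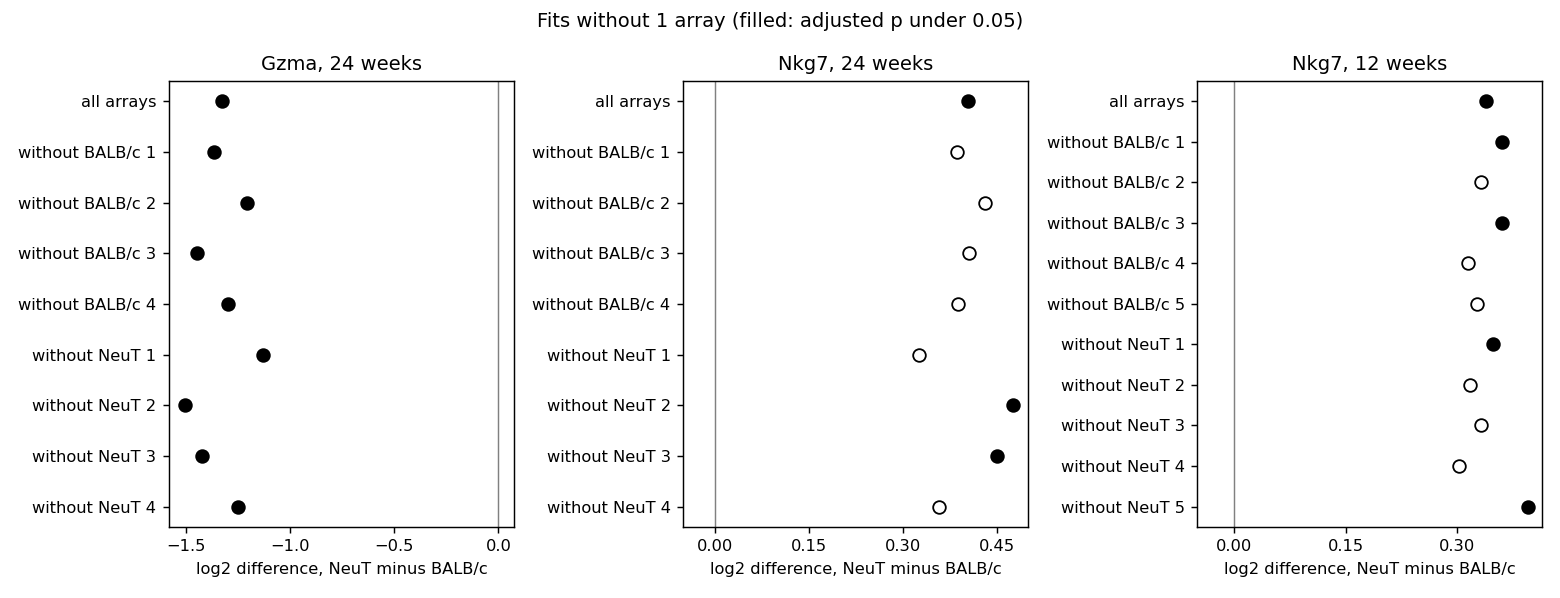
Log2 difference NeuT minus BALB/c (horizontal axes) of Gzma at 24 weeks and of Nkg7 at 24 and 12 weeks, with all arrays and without each array of the compared groups in turn; filled points have an adjusted p under 0.05. Gzma stays between -1.51 and -1.13 and passes in 8 of 8 fits, whereas Nkg7 passes in 2 of 8 and 4 of 10.

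The receptor genes did not pass at either age. Klrd1 encodes CD94, which pairs with NKG2 proteins to read MHC class I-like molecules. In the 12-week NeuT mice it read 8.15, 8.18, 8.23, 9.27 and 8.07, and in their controls 8.10, 7.74, 8.14, 8.16 and 8.11. Replicate 4, one of the 3 least correlated arrays, stands far above the rest of its group. The log2 difference at 12 weeks was 0.33 ± 0.20 (adjusted p = 0.344), and 0.11 without the 3 least correlated arrays. At 24 weeks the controls read 8.11, 8.52, 7.72 and 8.45 and the NeuT mice 7.75, 8.07, 7.87 and 7.10, a value of -0.51 ± 0.22 (adjusted p = 0.313). Ncr1, the gene of the NK receptor NKp46, had values of 0.22 (adjusted p = 0.291) and -0.34 (adjusted p = 0.249). At 24 weeks its NeuT signals of 6.42 to 6.50 lay below the control mice's 6.52 to 7.06, both under the median of the negative controls. Klrk1, which encodes NKG2D, had values of 0.31 (adjusted p = 0.184) and 0.15 (adjusted p = 0.708). For Klrd1 and Ncr1 the value changed sign between the ages, but the difference of effects, -0.84 ± 0.30 and -0.55 ± 0.18, did not pass (adjusted p = 0.711 and 0.71).

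Both T-box factor genes had values below 0 at both ages, and neither passed. Tbx21, the gene of T-bet, read 8.03, 8.04, 7.68, 7.91 and 8.06 in BALB/c and 7.63, 7.87, 7.62, 7.40 and 7.72 in NeuT mice of 12 weeks. The log2 difference was -0.30 ± 0.09 (adjusted p = 0.0551). It passed without BALB/c replicate 3 (adjusted p = 0.0207), NeuT replicate 2 (adjusted p = 0.0374) or NeuT replicate 5 (adjusted p = 0.0442), and with genes under the control median left out (adjusted p = 0.0422). Of all genes 3.33% passed without BALB/c replicate 3 (0.641% lower) and 6.99% without NeuT replicate 5 (1.76% lower). With genes under the control median left out, 6.41% of those tested passed (1.18% lower). At 24 weeks the controls read 7.88, 7.93, 7.92 and 8.02 and the NeuT mice 7.45, 7.74, 7.55 and 7.59. These groups did not overlap, and the log2 difference was -0.35 ± 0.10 (adjusted p = 0.0733). Eomes had values of -0.28 ± 0.15 (adjusted p = 0.281) and -0.56 ± 0.17 (adjusted p = 0.102). Its 24-week groups overlapped, with 8.67, 9.20, 8.37 and 9.25 in controls and 8.03, 8.70, 8.40 and 8.13 in NeuT mice. Ccl5, the gene of a chemokine that T and NK cells and platelets release, had values of -0.17 ± 0.08 (adjusted p = 0.240) and -0.30 ± 0.09 (adjusted p = 0.102), with signals of 7.27 to 7.97 near the control median.

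At 24 weeks the groups did not overlap for 4 of the 10 genes, Nkg7 above and Gzma, Ncr1 and Tbx21 below the controls. Over all genes such a gap was found in 6.72%, 4.95% higher and 1.76% lower. At 12 weeks this held for Nkg7 alone, above the controls, where such a gap was found in 7.46% of all genes (4.63% of all genes higher, 2.82% lower). One array decided further calls at 24 weeks: without NeuT replicate 2, 5 genes passed, Gzma, Nkg7, Eomes (adjusted p = 0.0238), Tbx21 (adjusted p = 0.0316) and Ccl5 (adjusted p = 0.0466). In that fit 3.29% of all genes passed, 2.51% higher and 0.774% lower. Array weights, which give less weight to arrays that vary more, called 7 genes, 1 higher and 6 lower: those 5 with Klrd1 (adjusted p = 0.0128) and Ncr1 (adjusted p = 0.00920). With these weights 2.96% of all genes passed, 2% higher and 0.959% lower. Without the 3 least correlated arrays 1 of the 10 genes passed at 24 weeks, Gzma, against 0.0769% of all genes, and 2 at 12 weeks, Gzma lower and Nkg7 higher, against 4.48%.

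**Figure D3:**
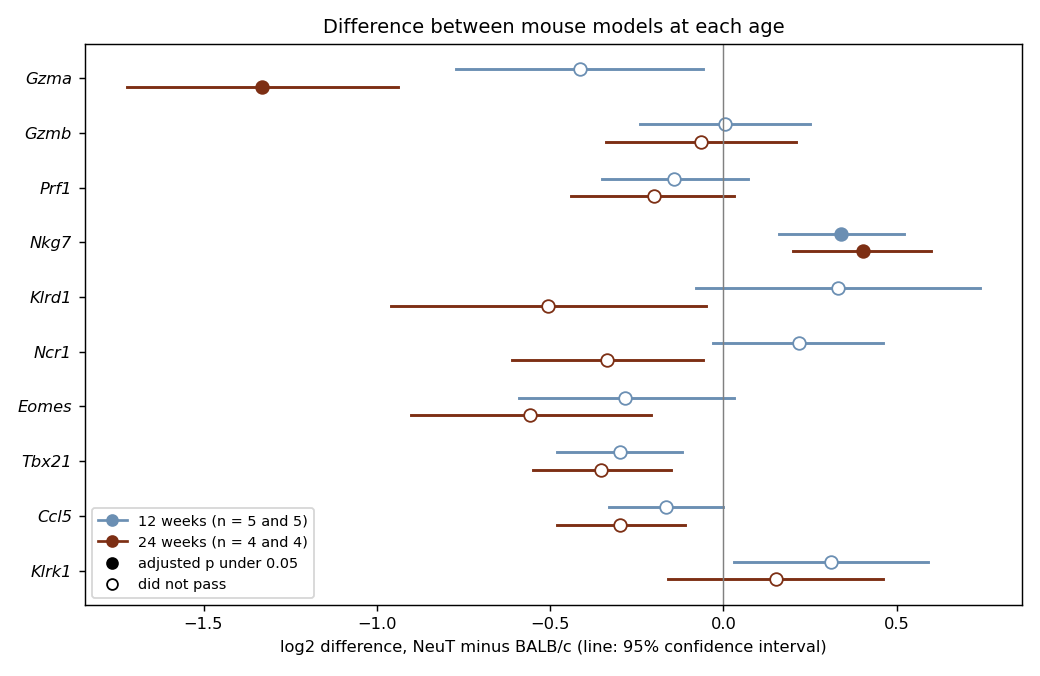
Log2 difference NeuT minus BALB/c (horizontal axis) of each gene at 12 and 24 weeks, with lines for the 95% confidence interval; filled points passed the adjusted threshold. Gzma at 24 weeks (-1.33) has the largest difference, Nkg7 is above 0 at both ages (0.34 and 0.40), and the interval of Gzmb includes 0 at both.

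With age none of the 10 genes passed in either mouse model, where 0.579% of all genes passed in BALB/c and 0.0359% in NeuT mice (0.0256% higher). At an unadjusted limma p under 0.05 there was 1 gene in BALB/c, Ccl5, against 15.3% of all genes, and 4 in NeuT mice, Gzma, Nkg7, Klrd1 and Ncr1, against 12.6%. Gzma was 0.21 higher at 24 than at 12 weeks in controls (adjusted p = 0.630) and 0.71 lower on the log2 scale in NeuT mice, from means of 8.77 to 8.06 (adjusted p = 0.11; 0.0229 without NeuT 24-week replicate 2). Without that array 0.907% of all genes passed with age in NeuT mice, 0.436% lower. Nkg7 had values of 0.18 and 0.25 (adjusted p = 0.337 and 0.245). In BALB/c 8 of the 10 values lay above 0 and in NeuT mice 8 lay below. The ages did not overlap for Nkg7 in BALB/c mice, higher at 24 weeks, against 6.95% of all genes (3.38% higher, 3.57% lower). In NeuT mice this held for Ncr1, lower at 24 weeks, against 5.08% of all genes (2.96% higher, 2.12% lower). The difference of the NeuT effects passed for none of the 10 genes, with 3 at an unadjusted limma p under 0.05 (Gzma, Klrd1 and Ncr1, against 6.5% of all genes) and 0.0103% of all genes past the adjusted threshold (0.00513% in each direction). The labels give no processing batch, so age cannot be told apart from one.

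The 10 genes did not vary as 1 block. Pearson correlations between them, over 18 arrays with each group's mean removed, ran from -0.49 to 0.82 in 45 pairs, with a median of 0.26 and 15 pairs below 0. The pairs with the highest values were Gzmb with Eomes (0.82), Gzma with Klrd1 (0.73) and Klrd1 with Ncr1 (0.68). For Gzma, Klrd1 and Ncr1 alike NeuT 12-week replicate 4 was the highest of its group (9.20, 9.27 and 7.25). The part of that array in these correlations was not tested, and Ncr1 lay under the control median in all 18 arrays. With the group means kept, Nkg7 was negatively correlated with Gzma (-0.76) and Tbx21 (-0.76), values that include the group differences given above, and with the means removed these were -0.36 and -0.43. The genes most like Gzma across all 18 arrays were Dynlrb2 (0.86), Gpr155 (0.85) and Mns1 (0.83), and with the group means removed Kif3a (0.91), Mylpf (0.90) and Cd59a (0.90). Those most like Nkg7 were Cldn15 (0.97), Prss57 (0.97), which encodes a serine protease of neutrophil granules, and Dram1 (0.95), and with the group means removed Cldn15 (0.92), Dram1 (0.91) and Ctdspl (0.90). These correlations describe the arrays, which share groups and normalisation, and carry no test.

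Other genes of the cytotoxic pathway were counted next, in lists also chosen with earlier results of these data known. Here and in the marker lists below, rose and fell mean higher and lower in NeuT than in BALB/c mice of the same age. For the counts of these genes at an unadjusted limma p under 0.05, the share of all genes is the 21% at 12 weeks and the 13.2% at 24 weeks given above. For genes past the adjusted threshold it is 3.84% and 1.4%. Of 14 genes for granule enzymes and exocytosis 1 rose at 12 weeks and none passed at 24 weeks, with 8 at an unadjusted limma p under 0.05, 5 higher and 3 lower. The one that rose was Ctsc, the gene of cathepsin C, which activates granzymes and also neutrophil proteases (log2 difference 0.57 ± 0.11, adjusted p = 0.00687). The other granzyme genes measured, Gzmc, Gzmk and Gzmm, had values of -0.03, -0.53 and -0.02 at 24 weeks (adjusted p = 0.947, 0.0759 and 0.928). Of 15 NK receptor and adaptor genes Tyrobp alone rose at 12 weeks (0.36, adjusted p = 0.0391), which encodes the adaptor DAP12 of NK and myeloid cells. None of these passed at 24 weeks, with 6 at an unadjusted limma p under 0.05, 3 higher and 3 lower (the latter Klrg1, Slamf7 with -0.90 and Il2rb with -0.66). Of 8 lymphoid transcription factor genes Nfil3, needed for NK development and also active in myeloid cells, rose at 12 weeks (0.41, adjusted p = 0.0125) and Ikzf3, which encodes Aiolos of B cells and other lymphocytes, fell at 24 weeks (-0.89, adjusted p = 0.0361). At an unadjusted limma p under 0.05 this list had 1 higher and 3 lower at 12 weeks, and 3 at 24 weeks, all lower. Ets1 (-0.40 and -0.53) and Lef1 (-0.59 and -0.73) were among the lower ones at both ages, and neither passed. Among 8 effector cytokine and death ligand genes the chemokine genes Ccl4 (0.93, adjusted p = 0.00492) and Ccl3 (0.41, adjusted p = 0.0391) rose at 12 weeks. At 24 weeks Tnf was higher in NeuT mice (0.56, adjusted p = 0.0372) and Fasl, the Fas ligand gene, lower (-0.40, adjusted p = 0.0302). The Fasl means there were 8.02 in BALB/c and 7.62 in NeuT mice. Ifng had values of -0.07 and -0.17, under the control median. At an unadjusted limma p under 0.05 the effector list had 4 higher and 1 lower at 12 weeks, and 1 of each at 24 weeks. Of 9 genes of IL-15 and IL-12 signals Il15, the cytokine that keeps NK cells alive, was higher in NeuT mice at 12 weeks (0.78 ± 0.14, adjusted p = 0.00308). The Il15 means there were 7.55 in BALB/c and 8.32 in NeuT mice. None of these 9 passed at 24 weeks, with 1 at an unadjusted limma p under 0.05, Il15 itself (0.55, adjusted p = 0.0733). The NKG2D ligand genes H60c and Ulbp1 did not pass (values of -0.09 and -0.23 at 12 weeks, 0.01 and -0.13 at 24 weeks). When 1 array was left out, the test was no longer passed in 9 of 10 fits for Tyrobp, 7 of 10 for Ccl3, 6 of 8 for Ikzf3, 5 of 8 for Fasl and 4 of 8 for Tnf, and in 0 of 10 for Ctsc, Nfil3, Ccl4 and Il15. Such fits also passed other shares of all genes, as given for Nkg7. Under 3 other scalings of the arrays Tyrobp, Ccl3 and Tnf passed in 1 (adjusted p up to 0.0525, 0.0557 and 0.0661) and Ikzf3 in 2 (adjusted p up to 0.0511). The medians of these 6 lists ran from -0.16 to 0.24 at 12 weeks and from -0.10 to 0.00 at 24 weeks, against -0.03 and 0 over all genes. Some genes of the lists, such as 3 of 18 receptor genes, were not matched and are not analysed here.

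**Figure D4:**
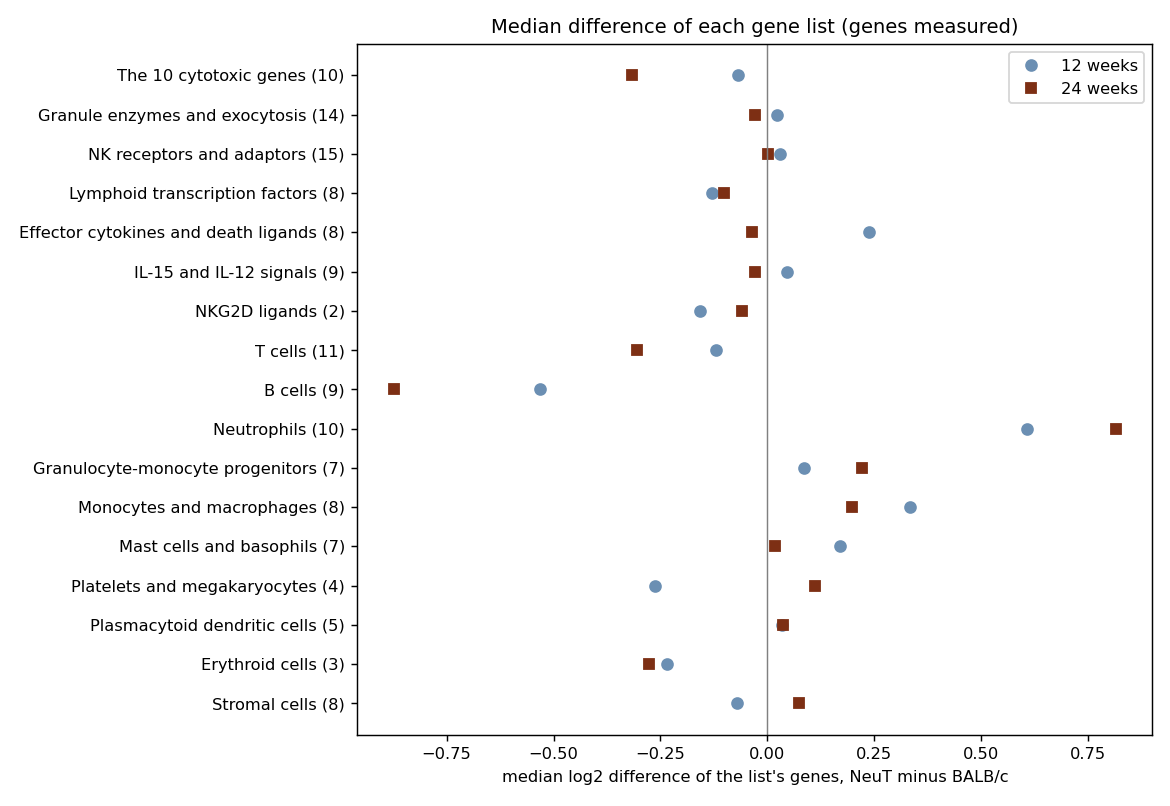
Median log2 difference NeuT minus BALB/c (horizontal axis) over the genes of each list, with the number of genes measured in brackets, at 12 weeks (circles) and 24 weeks (squares). The 10 cytotoxic genes (-0.32) and the T-cell markers (-0.30) have similar medians at 24 weeks, B-cell markers the lowest (-0.87) and neutrophil markers the highest (0.82).

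Markers of other marrow cells were counted in the same arrays. These lists too were chosen with earlier results of these data known, so their counts against all genes are descriptive. Of 11 genes listed as T-cell markers 3 fell at 24 weeks: Cd2 (-1.03, adjusted p = 0.0233), Cd3e (-0.58, adjusted p = 0.0354) and Cd8b1 (-0.45, adjusted p = 0.0454). Of all genes 0.22% passed lower there. At an unadjusted limma p under 0.05 there were 9, all lower, where 4.02% of all genes were lower. Cd3d (0.04) and Cd4 (0.02) lay above 0. None passed at 12 weeks, with 1 at an unadjusted limma p under 0.05, Cd2 (-0.58, adjusted p = 0.0779). Which cells the Cd2 signal came from was not tested. The list's mean log2 signal per array was 8.56 to 8.93 in the controls and 8.29 to 8.53 in the NeuT mice of 24 weeks. Of 9 B-cell markers Spib (-1.24, adjusted p = 0.0492) and Blk (-0.997, adjusted p = 0.0282) fell at 24 weeks, with a median of -0.87. At an unadjusted limma p under 0.05 there were 7, all lower. At 12 weeks none passed, with 6 at an unadjusted limma p under 0.05, all lower, and 9 of 9 values lay below 0 (median -0.53). At 24 weeks the list's mean signal was 10.91 to 11.22 in controls and 9.74 to 10.86 in NeuT mice. When 1 array was left out, Cd2 no longer passed in 3 of 8 fits, Blk in 5, and Cd3e, Cd8b1 and Spib in 6 each, and under 3 other scalings of the arrays (quantile, cyclic loess and median centring) Spib passed in 0 and Cd8b1 in 1. The share of all genes that passed shifted in the fits without 1 array too, as given for Nkg7. These values stand beside that of Gzma, and the part of T and B cells in it was not tested.

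Beside Nkg7, 5 of 10 neutrophil markers rose at 12 weeks, among them Mmp8 (1.81), Ltf (1.52), Lcn2 (1.41) and Mmp9 (1.02), and 6 at 24 weeks, among them Ltf (1.82), Mmp9 (1.07), Cebpe (0.62) and Ngp (0.59). Of all genes 3.15% passed higher and 0.687% lower at 12 weeks, and 1.18% passed higher at 24 weeks. The mean signal of the neutrophil list was 10.21 to 10.73 in the controls and 10.71 to 11.71 in the NeuT mice of 24 weeks. Of 7 markers of granulocyte-monocyte progenitors Ms4a3 rose at 12 weeks (0.28, adjusted p = 0.0439), and none passed at 24 weeks, with 5 at an unadjusted limma p under 0.05, all higher, where 9.2% of all genes were higher. Their mean signal was 11.91 to 12.18 in controls and 12.18 to 12.43 in NeuT mice. Of 8 monocyte and macrophage markers 4 rose at 12 weeks (Ccr2, Lyz2, Fcgr1 and Csf1r) and 1 fell (C1qc), and none passed at 24 weeks. Ms4a2 and Fcer1a rose at 12 weeks among 7 markers of mast cells and basophils. None of 4 platelet, 5 plasmacytoid dendritic, 3 erythroid and 8 stromal markers passed at either age. Without 1 array the 12-week call ended in 9 of 10 fits for Ms4a3, 8 for Lcn2, 7 each for Ltf, Cxcr2 and Csf1r, 5 for Lyz2, 2 for Mmp9 and 1 for C1qc. At 24 weeks the call of each neutrophil marker ended in 6 or 7 of 8 such fits, and under 3 other scalings Ltf, Mmp9 and Cebpe passed in 0 and Ngp, S100a9 and Cxcr2 in 1. At 12 weeks Lcn2 and Ms4a3 passed in 1 of these scalings. The part of these cells in the Nkg7 values was not tested. In the fits without 1 array the share of all genes that passed shifted too, as given for Nkg7.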

How the data were processed

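The authors' deposited values are log2 signals, 1 per probe set, of 18 arrays. Per the submitters' processing notes they were made with RMA and the Transcriptome Analysis Console. For their versions and the genome build the sources used here say nothing. Of 29129 probe sets 19572 had 1 gene symbol, and where a gene had several the one with the highest mean was kept (55 genes), leaving 19505 genes, with no filter on dim ones. The number of arrays limits the precision. Replicates are different mice, numbered in accession order.

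With limma 3.58.1 (R 4.3.3) a model of 4 group means was fitted per gene (residual degrees of freedom 14, prior 8.68), and 5 contrasts were tested, with Benjamini-Hochberg adjustment over all genes at 0.05 (checked on simulated data). Members and gene lists were chosen with earlier results of these data known. Named genes are the members, list genes past the threshold, other genes that set a list beside a result, and the 3 genes most correlated with each member that passed. Promoter windows came from RefSeq (GRCm38.p6): 8 of 10 members matched, not Klrd1 and Ccl5. Alternatives were other scalings, filters, array weights, moderation, probe set averaging, fits on fewer groups, and fits without 1 or 3 arrays.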

Additional observations from a re-analysis of the deposited data

Results flagged for a closer look

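In 3 of the 40 sets of values (10 genes in 4 groups) 1 mouse lay far from the rest of its group by Dixon's test, in which the gap to the nearest mouse is divided by the group's range. Chance gives about 1 in 20. Prf1 in the BALB/c mice of 24 weeks was lowest in replicate 1 (7.35, next 7.90; ratio 0.938). Klrd1 in the BALB/c mice of 12 weeks was lowest in replicate 2 (7.74, next 8.10; ratio 0.873). Klrd1 in the NeuT mice of 12 weeks was highest in replicate 4 (9.27, next 8.23; ratio 0.87). That array is also one of the 3 least correlated with the others, and its part in the Klrd1 value was not tested beyond the fits without it.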

How the results depend on the processing

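No paired analysis was possible because the replicates of each group are different mice with numbers given in accession order. Of the 10 genes 1 passed at 12 weeks. With the share of all genes in brackets, this became 0 after cyclic loess (3.65%) and 2 with array weights (10.7%). It was 2 without genes under the control median (6.41% of those tested) and 2 without the 3 least correlated arrays (4.48%). Without 1 array it was 0 to 2, and where it was not 1, 1.18% to 6.99% of all genes passed. At 24 weeks 2 passed. This became 1 after a further quantile normalisation (0.584%), 1 after cyclic loess (0.518%) and 1 without the 3 least correlated arrays (0.0769%). It was 1 among genes above the 95th percentile of controls (4.59% of those tested, Gzma not among them). Array weights gave 7 (2.96%). The fit on only the 24-week groups gave 0, and the fits without 1 array gave 1 to 5. Where these latter fits did not give 2, 0.041% to 3.29% of all genes passed. With age in BALB/c mice 2 genes passed with array weights (Ncr1 and Ccl5, both higher). In that fit 12.2% of all genes passed, 6.5% higher and 5.68% lower. Without 1 array 0 passed in BALB/c mice and 0 to 1 in NeuT mice. In the fit that gave 1, 0.907% of all genes passed, 0.436% lower. The difference of effects gave 0 in each alternative run. The cause of these shifts was not tested.

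Several small values, none past the threshold, changed sign. Gzmb at 12 weeks became -0.016 (quantile) and -0.014 (loess). Klrk1 at 24 weeks became -0.094 (weights) and -0.096 (without 3 arrays), and the Prf1 difference of effects 0.014 (without 3 arrays). With age in BALB/c, Tbx21 became 0.021, 0.026, 0.002 and 0.006 and Klrk1 0.035, 0.028, 0.002 and 0.206 (quantile, loess, median centring, weights; Klrk1 0.172 without 3 arrays). With age in NeuT, Prf1 became 0.001, 0.002, 0.013 and 0.017 (quantile, loess, weights, without 3 arrays). Without 1 array the ranges were -0.063 to 0.081 (Gzmb, 12 weeks), -0.171 to 0.032 (Gzmb, 24 weeks) and -0.030 to 0.264 (Klrk1, 24 weeks). For the difference of effects they were -0.177 to 0.026 (Gzmb), -0.014 to 0.136 (Nkg7) and -0.116 to 0.012 (Tbx21). With age in BALB/c they were -0.051 to 0.152 (Gzmb), -0.009 to 0.189 (Prf1), -0.032 to 0.262 (Eomes), -0.075 to 0.020 (Tbx21) and -0.121 to 0.172 (Klrk1), and in NeuT -0.100 to 0.048 (Gzmb) and -0.083 to 0.018 (Prf1). Further scaling moved the median of all genes by under 0.1.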
